A study of Mus musculus with 6 samples.

Results

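Axon guidance ligands and receptors were followed through sciatic nerves that lack the ubiquitin ligase gene Rnf40 in Schwann cells. Members were taken by gene symbol, as every counted symbol that names a semaphorin of classes 3 to 7, an ephrin, a netrin, a Slit, a plexin, a neuropilin, an Eph receptor, an Unc5 receptor or a Robo receptor. This rule and the lists used below were set with earlier results of these data known. Of 24015 symbols counted in each library, 68 met this rule. They comprise 35 ligands (20 semaphorins, 8 ephrins, 4 netrins and 3 Slits) and 33 receptors (9 plexins, 2 neuropilins, 14 Eph receptors, 4 Unc5 receptors and 4 Robo receptors).

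RNA-Seq was performed on sciatic nerves of mice at postnatal day 14, with 3 libraries per genotype, and asked which transcripts differ once Rnf40 is removed from Schwann cells. Control mice carried Rnf40 fl/fl alleles without Cre, and Rnf40ΔSC mice carried the same floxed alleles together with a Dhh::Cre transgene. The labels give a mixed 129SvJ/C57Bl/6J background for both genotypes, whereas the methods of the study name a mix of C3H and C57Bl/6J. According to those methods each library came from a pool of 3 nerves. Dhh::Cre is driven by the desert hedgehog promoter, which is active in the Schwann cell lineage, so axons, whose cell bodies lie outside the nerve, and most other nerve cells keep Rnf40. The control libraries 1 to 3 held 1317167, 1992622 and 2468765 counts on genes, and the Rnf40ΔSC libraries 1 to 3 held 2184268, 1459387 and 2186710.

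As background, axon guidance cues are secreted or membrane-bound proteins that attract or repel a growing axon or a migrating cell. Class 3 semaphorins act through neuropilins paired with plexins, the other semaphorins mostly bind plexins directly, ephrins bind Eph receptor tyrosine kinases on contact, netrins bind Dcc and Unc5 receptors, and Slits bind Robo receptors. In peripheral nerve these proteins are known from axon growth, Schwann cell migration and sorting, nerve repair and the patterning of blood vessels.

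The deleted gene was examined first. Rnf40 (chr7:134732212-134747119 of mouse build NCBIM37, also called mm9, as for all gene coordinates apart from the promoters) was counted at 130, 126 and 142 normalized counts in control libraries 1 to 3 and at 90.2, 90.4 and 94.2 in Rnf40ΔSC libraries 1 to 3. Normalized counts are counts divided by the library's effective size, which is its total scaled by TMM (trimmed mean of M-values), and multiplied by the mean effective size. The log2 fold change was -0.54 ± 0.14 (SE), and the edgeR BH-adjusted p = 0.00242, where BH stands for Benjamini-Hochberg adjustment over the 11371 genes tested. All 3 Rnf40ΔSC libraries were below all 3 control libraries, as the labels give them. The counts cover the whole gene, whereas the floxed part is exons 3 and 4, so they do not measure the deleted part on its own. Under scaling by total counts the log2 fold change of Rnf40 was -0.27 and its adjusted p (edgeR, BH) was 0.12. Rnf20, which encodes the partner of Rnf40 in the same ligase, was at 0.44 (edgeR, BH-adjusted p = 0.00998).

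Scaling bears on every direction given here. TMM factors of control libraries 1 to 3 were 0.928, 0.893 and 0.913, those of Rnf40ΔSC libraries 1 to 3 were 1.074, 1.105 and 1.114, and scaling by total counts in place of TMM moved the log2 fold change of the median gene by 0.27 towards Rnf40ΔSC. Of all 11371 genes, 1841 were lower and 1756 higher in Rnf40ΔSC nerves with TMM, compared to 880 lower and 3766 higher with total counts. Rnf40ΔSC replicate 3 stood apart from the other libraries of its genotype in skeletal muscle transcripts, as described with the cell type markers, and the counts of members are therefore also given without it.

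Of the 68 members, 56 passed the filter on low counts and were tested. Among these 18 (32.1%) were lower in Rnf40ΔSC nerves, beside 16.2% of all genes tested, and 11 (19.6%) were higher, beside 15.4% of all genes tested, but with scaling by total counts 10 (17.9%) were lower and 18 (32.1%) higher, beside 7.74% and 33.1% of all genes tested. With total counts the share of higher members was thus close to that of all genes. Without Rnf40ΔSC replicate 3 there were 18 (32.1%) lower and 12 (21.4%) higher members, beside 17.3% and 16.7% of all genes tested. The remaining 27 tested members did not pass at an adjusted p of at most 0.05. Of the 29 that passed, 17 (10 lower and 7 higher) kept their call in every alternative fit that tested them. Some higher members, such as Unc5c, had few counts in controls and passed the filter on low counts through the Rnf40ΔSC libraries. With at least 10 counts in every library 17 members were lower and 7 higher, where 18.2% and 16.7% of all genes tested were. The 19.6% of higher members is therefore not read as an excess over all genes. The median log2 fold change of the 56 tested members was -0.20, compared to 0.00 for all genes tested, and the median of its absolute value was 0.56, compared to 0.32. With the further limits of the study (log2 fold change beyond 0.8 in either direction, mean count of 20 or more), 8 members were lower, beside 5.05% of all genes tested, and 6 were higher, beside 3.73%. Ligands and receptors moved both ways: 10 of 31 tested ligands were lower and 5 higher, and 8 of 25 tested receptors were lower and 6 higher. In whole-nerve RNA, fewer cells of a type and less RNA per cell cannot be told apart.

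**Figure D1:**
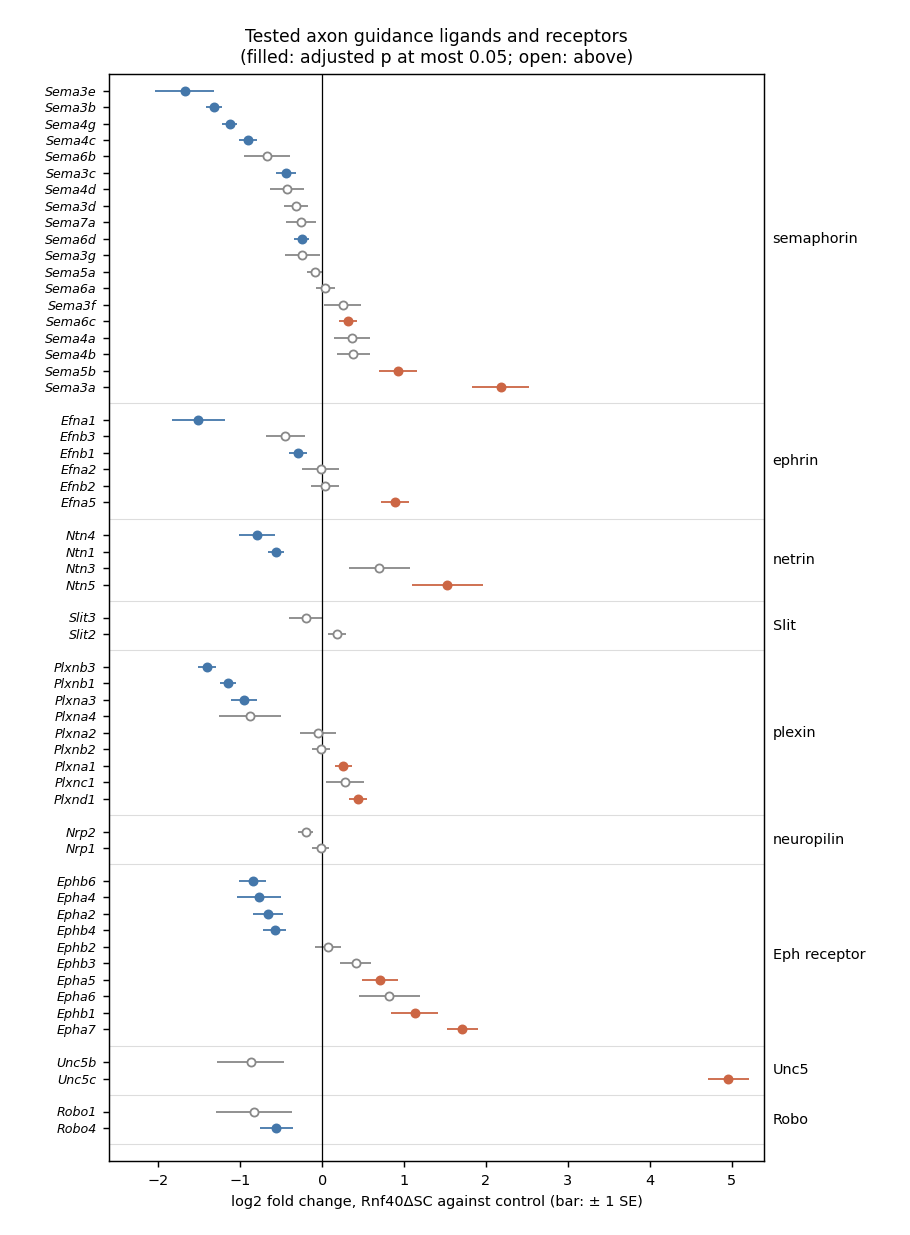
Log2 fold change (Rnf40ΔSC against control, TMM scaling, x axis) of the 56 tested members, grouped by family, with bars of 1 standard error; filled points passed at an adjusted p of at most 0.05. Values run from -1.68 for Sema3e to 4.96 for Unc5c, and scaling by total counts moves all points by about 0.27 to the right, which turns the sign of Sema6d among the filled points.

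Among the secreted class 3 semaphorins, Sema3b was the most abundant. Sema3b (chr9:107500005-107511560), a neuropilin ligand, had 1270, 1401 and 1451 normalized counts in control libraries 1 to 3 and 561, 465 and 623 in Rnf40ΔSC libraries 1 to 3. It fell by 1.32 ± 0.10 (SE) on the log2 scale (edgeR, BH-adjusted p = 1.25e-13), and the highest Rnf40ΔSC library lay below the lowest control library. Sema3e, which differs from the other class 3 members in binding Plxnd1 without a neuropilin, was counted at 17.5, 36.0 and 24.1 in controls and at 9.11, 6.03 and 8.78 in Rnf40ΔSC nerves. Its libraries did not overlap either, and it fell by 1.68 ± 0.36 (SE; edgeR, BH-adjusted p = 0.000387), from a low level. Sema3c, a class 3 member that also attracts some axons, had a log2 fold change of -0.44 (edgeR, BH-adjusted p = 0.00567), although Rnf40ΔSC replicate 2 at 260 lay above control replicate 3 at 256, and its log2 fold change was -0.29 without Rnf40ΔSC replicate 3 and -0.17 (edgeR, BH-adjusted p = 0.273) with total counts.

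Sema3a (chr5:13125593-13602565), the repellent that acts through Nrp1 and A-type plexins, went the other way. It had 15.9, 2.18 and 10.3 normalized counts in control libraries 1 to 3, from raw counts of 10, 2 and 12, and 38.9, 37.4 and 45.5 in Rnf40ΔSC libraries 1 to 3, from raw counts of 47, 31 and 57. All Rnf40ΔSC libraries were above all control libraries, and the log2 fold change was 2.18 ± 0.35 (SE; edgeR, BH-adjusted p = 4.71e-06). The control values rest on few counts, and the fold change was between 1.70 and 2.59 on the log2 scale when single libraries were left out. The other class 3 members did not pass: Sema3d had a log2 fold change of -0.32, Sema3f, the Nrp2 ligand, of 0.25, and Sema3g of -0.24. Sema3d passed only without control replicate 3 (-0.45, edgeR BH-adjusted p = 0.0479), and its leave-one-out range ran from -0.45 to -0.18.

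The membrane-bound class 4 semaphorins were led by Sema4g and Sema4c, both known as ligands of Plxnb2. Sema4g (chr19:45063591-45077887) was counted at 689, 729 and 711 in controls and at 327, 299 and 344 in Rnf40ΔSC nerves. Sema4c had 352, 345 and 343 in controls and 171, 168 and 215 in Rnf40ΔSC nerves. The genotypes did not overlap for either gene, although Rnf40ΔSC replicate 3 stood above the other Rnf40ΔSC libraries for Sema4c. The log2 fold changes were -1.13 ± 0.09 for Sema4g (edgeR, BH-adjusted p = 2.85e-12) and -0.90 ± 0.11 for Sema4c (edgeR, BH-adjusted p = 1.99e-08). Sema4d, the ligand of Plxnb1, was at -0.43 (edgeR, BH-adjusted p = 0.123), Sema4a at 0.37 and Sema4b at 0.38, and none of these passed with TMM. Sema4a and Sema4b passed with total counts at 0.64 and 0.65, and Sema4b passed without control replicate 1 at 0.58 (edgeR, BH-adjusted p = 0.0478). The leave-one-out range of Sema4b ran from 0.22 to 0.58. Sema4f had at most 2 counts in any library and was not tested.

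In classes 5 to 7 the abundant members moved little. Sema5a, a thrombospondin-repeat semaphorin that binds Plxnb3, had 1445, 1686 and 1555 normalized counts in controls and 1546, 1507 and 1365 in Rnf40ΔSC nerves. These ranges overlapped, and the log2 fold change was -0.09 ± 0.09 (edgeR, BH-adjusted p = 0.48), or 0.18 with total counts. Sema6d, a transmembrane ligand of Plxna1, was counted at 1196, 1280 and 1134 in controls and at 1109, 1015 and 909 in Rnf40ΔSC nerves. Its libraries were separate by a narrow margin and its log2 fold change was -0.25 ± 0.09 (edgeR, BH-adjusted p = 0.0302), but it was 0.02 with total counts, and the adjusted p (edgeR, BH) was between 0.0546 and 0.141 when control replicate 1, 2 or 3 or Rnf40ΔSC replicate 2 or 3 was left out. With DESeq2 the adjusted p (BH) of Sema6d was 0.0536.

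Sema5b, the other class 5 member, was far lower in level than Sema5a and rose. It had 27.0, 21.8 and 33.6 normalized counts in controls and 48.0, 48.2 and 62.2 in Rnf40ΔSC nerves, without overlap, and its log2 fold change was 0.93 ± 0.23 (edgeR, BH-adjusted p = 0.00156). Sema6c had a log2 fold change of 0.32 (edgeR, BH-adjusted p = 0.0241) with overlapping libraries, as Rnf40ΔSC replicate 2 at 258 lay below control replicate 3 at 272. Without control replicate 1, control replicate 2 or Rnf40ΔSC replicate 1, Sema6c did not pass, with adjusted p (edgeR, BH) of 0.0853, 0.105 and 0.186, nor did it with DESeq2 (BH-adjusted p = 0.0812), and with total counts it was at 0.59. The transmembrane members Sema6a and Sema6b were at 0.04 and -0.67, and the GPI-anchored Sema7a, a ligand of Plxnc1, was at -0.26. These 3 did not pass with TMM, while Sema6a passed with total counts at 0.31 (edgeR, BH-adjusted p = 0.0361) and Sema6b passed at -0.66 (edgeR, BH-adjusted p = 0.0482) when at least 10 counts were demanded in every library. In all, 6 of 19 tested semaphorins were lower and 3 higher (31.6% and 15.8%, beside 16.2% and 15.4% of all genes tested), compared to 4 lower and 6 higher with total counts (21.1% and 31.6%, beside 7.74% and 33.1%).

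Ephrins of class A are held in the membrane by a lipid anchor and those of class B span it, and a change in opposite directions was seen within class A. Efna1 was counted at 39.7, 33.8 and 30.1 in control libraries 1 to 3 and at 18.2, 9.64 and 7.18 in Rnf40ΔSC libraries 1 to 3. Every Rnf40ΔSC library was below every control library, with Rnf40ΔSC replicate 1 nearest to the controls, and the log2 fold change was -1.51 ± 0.32 (edgeR, BH-adjusted p = 0.000332). Without Rnf40ΔSC replicate 1 it reached the lower end of its leave-one-out range, which ran from -2.02 to -1.20. Efna5 had 42.9, 56.7 and 65.4 in controls and 114, 94.0 and 104 in Rnf40ΔSC nerves. Efna5 thus rose without overlap, with a log2 fold change of 0.89 ± 0.17 (edgeR, BH-adjusted p = 8.54e-05).

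Efnb1 was the most abundant ephrin per kilobase in both genotypes. It had a log2 fold change of -0.30 (edgeR, BH-adjusted p = 0.0368) with TMM and of -0.04 (edgeR, BH-adjusted p = 0.836) with total counts, and it did not pass without control replicate 1, control replicate 2, Rnf40ΔSC replicate 1 or Rnf40ΔSC replicate 2, at adjusted p between 0.101 and 0.135 (edgeR, BH). Efnb1 also did not pass with DESeq2 (BH-adjusted p = 0.138) or with no filter on low counts (edgeR, BH-adjusted p = 0.0517). Efna2 was at -0.02, Efnb2, the vascular ephrin that binds Ephb4, at 0.03, and Efnb3 at -0.45. None of these 3 passed, except that Efnb3 passed without Rnf40ΔSC replicate 3 (-0.75, edgeR BH-adjusted p = 0.0241). Without Rnf40ΔSC replicate 2 Efnb3 was at -0.30 (edgeR, BH-adjusted p = 0.422). Efna4 had between 1 and 4 counts per library and Efna3 had 0 in all 6, and neither was tested. Of 6 tested ephrins, 2 were lower and 1 higher (33.3% and 16.7%, beside 16.2% and 15.4% of all genes tested), compared to 1 lower and 1 higher with total counts (16.7% each, beside 7.74% and 33.1%).

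The promoters of all members, ligands and receptors, were searched for the binding motif of Egr-type zinc finger factors, because Egr2 is the factor of this kind that drives peripheral myelination. The motif GCGNGGGCG was searched on both strands in RefSeq windows of build GRCm38.p6 that hold 250 bases before and 50 bases after each start site. It overlaps in part with the GC box GGGCGG, so that 1259 of the 1824 windows with a match had one that shared bases with a GC box. Among all 32851 windows 5.55% held the motif. The share was 11.1% for windows of genes that were higher in Rnf40ΔSC nerves, 11.3% for genes that were lower, 10.7% for genes that were tested and did not pass and 3.84% for genes that were not tested. In windows of members it was 18.7% of 75, with 8.33% for higher, 10.5% for lower, 25.8% for members that did not pass and 23.1% for those not tested. For 59 of the 68 members a window was found, and counted by gene 14 members held the motif, among them 1 of 10 that were higher, 2 of 16 that were lower, 8 of 23 that did not pass and 3 of 10 that were not tested. The promoters of the 3 members that passed and held a match are shown to place the matches, and all 3 are ligands. A match is a description of the letters and not a site of binding, and promoter activity was not tested.

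Each sequence runs 5′ to 3′ on the strand of the gene, and the capitals mark the match to GCGNGGGCG on either strand. The Sema4g window lies at chr19:44989094-44989393 on the + strand, with its match starting at position -142 from the start site. The Efna5 window lies at chr17:62881268-62881567 on the - strand, with its match at -112. The Efna1 window lies at chr3:89279596-89279895 on the - strand, is 1 of 2 windows of that gene, and has its match at -59. In all 3 the match shares bases with a GC box.
Sema4g: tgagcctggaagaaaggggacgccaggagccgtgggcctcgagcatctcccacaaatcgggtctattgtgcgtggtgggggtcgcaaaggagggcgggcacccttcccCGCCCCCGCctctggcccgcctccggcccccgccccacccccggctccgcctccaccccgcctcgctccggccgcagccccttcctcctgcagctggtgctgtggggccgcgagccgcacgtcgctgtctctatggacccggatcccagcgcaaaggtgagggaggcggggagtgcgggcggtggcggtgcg
Efna5: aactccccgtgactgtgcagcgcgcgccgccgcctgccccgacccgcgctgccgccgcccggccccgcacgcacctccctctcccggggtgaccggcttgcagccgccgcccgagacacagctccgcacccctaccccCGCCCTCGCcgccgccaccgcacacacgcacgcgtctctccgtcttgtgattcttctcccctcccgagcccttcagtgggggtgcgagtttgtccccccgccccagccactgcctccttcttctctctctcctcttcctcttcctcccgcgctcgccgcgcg
Efna1: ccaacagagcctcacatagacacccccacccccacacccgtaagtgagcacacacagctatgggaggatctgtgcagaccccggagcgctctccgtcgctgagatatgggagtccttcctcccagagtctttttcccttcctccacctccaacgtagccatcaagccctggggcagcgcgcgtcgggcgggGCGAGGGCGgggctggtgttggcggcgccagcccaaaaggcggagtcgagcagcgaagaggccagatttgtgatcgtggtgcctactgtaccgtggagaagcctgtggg

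Netrins are laminin-related proteins, of which Ntn1 is the secreted guidance cue known from the spinal cord midline and Ntn4 a basement membrane component. Ntn1 had a log2 fold change of -0.56 ± 0.10 (edgeR, BH-adjusted p = 4.49e-05), with 327, 295 and 313 normalized counts in controls and 206, 213 and 215 in Rnf40ΔSC nerves, and with total counts it was at -0.29. Ntn4 was at -0.79 ± 0.22 (edgeR, BH-adjusted p = 0.0053), with libraries that did not overlap. This call was lost with total counts (-0.52, edgeR BH-adjusted p = 0.0613) and without Rnf40ΔSC replicate 1 (-0.63, edgeR BH-adjusted p = 0.0522).

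Ntn5 (chr7:52939784-52949924), a less studied member of the family, rose from a very low level. Its normalized counts were 1.59, 4.36 and 12.9 in control libraries 1 to 3 and 15.7, 24.1 and 23.9 in Rnf40ΔSC libraries 1 to 3. Control replicate 3 came close to Rnf40ΔSC replicate 1, so the genotypes were separate by a narrow margin. The log2 fold change was 1.53 ± 0.43 (edgeR, BH-adjusted p = 0.00495), which became 2.67 without control replicate 3 and 1.28 (edgeR, BH-adjusted p = 0.0503) without control replicate 2. Of the exonic bases of Ntn5, 25.9% are shared with Sec1 on the opposite strand, and reads from these genes cannot be told apart here. The strand setting of the counting was not given in the sources used, and the kits named differ, as the methods give NEXTFLEX Rapid Directional and the labels NEB Next Ultra. Ntn3 was at 0.70 (edgeR, BH-adjusted p = 0.15) and passed without control replicate 2 at 1.41 (edgeR, BH-adjusted p = 0.0157) and with total counts at 0.97 (edgeR, BH-adjusted p = 0.0333). Without control replicate 3 Ntn3 was at 0.36 (edgeR, BH-adjusted p = 0.561). Of 4 netrins, 2 were lower and 1 higher, while all genes tested had 16.2% lower and 15.4% higher, compared to 1 lower and 2 higher with total counts, where all genes had 7.74% and 33.1%.

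Slits are large secreted ligands of Robo receptors, and neither tested member passed with TMM. Slit2 had 224, 285 and 252 normalized counts in controls and 323, 257 and 285 in Rnf40ΔSC nerves. The libraries overlapped and the log2 fold change was 0.18 ± 0.11 (edgeR, BH-adjusted p = 0.217), whereas with total counts it was 0.45 (edgeR, BH-adjusted p = 0.00106). Slit3 was at -0.20, or at 0.07 with total counts. Slit1 had between 0 and 4 counts per library and was not tested.

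**Figure D2:**
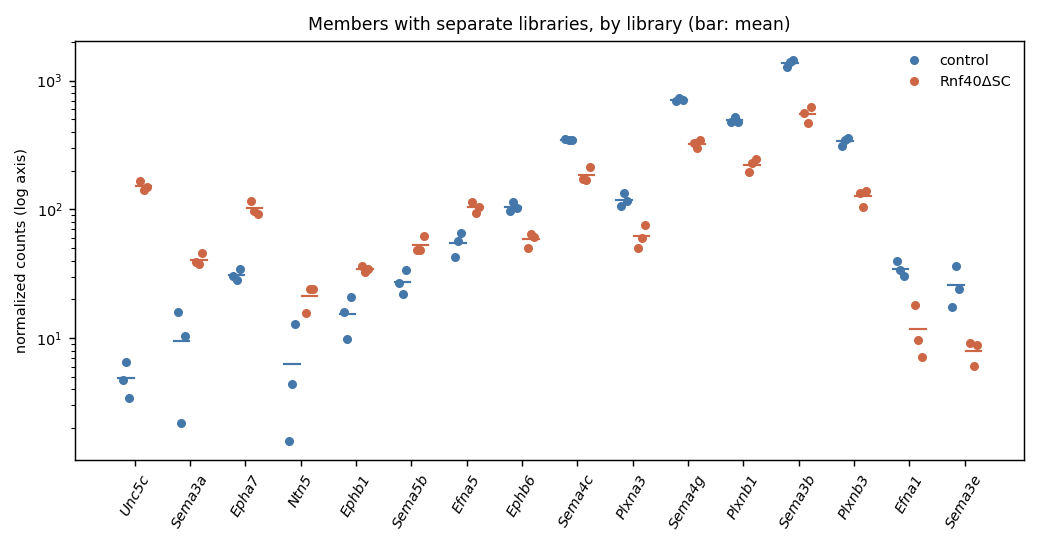
Normalized counts (log axis) in each library of the members that passed with a log2 fold change beyond 0.8 in either direction and with libraries that did not overlap. Points are libraries and bars are means of 3. The rule serves to choose genes for display, and the share of all genes that meet it is not given. From left to right the genes run from Unc5c, with 3.44 to 6.54 in controls and 142 to 167 in Rnf40ΔSC nerves, to Sema3e, with 17.5 to 36.0 in controls and 6.03 to 9.11 in Rnf40ΔSC nerves.

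On the receptor side, the plexins changed in composition. Plexins are transmembrane receptors with an intracellular GAP domain for small GTPases. Plxnb3 (chrX:71002429-71017853), the receptor of Sema5a, was counted at 308, 348 and 358 in control libraries 1 to 3 and at 134, 105 and 139 in Rnf40ΔSC libraries 1 to 3. Plxnb1 (chr9:108997950-109022425), the receptor of Sema4d, had 481, 518 and 479 in controls and 195, 229 and 244 in Rnf40ΔSC nerves. Plxna3, which signals for Sema3f together with Nrp2, had 106, 134 and 117 in controls and 50.5, 60.3 and 75.0 in Rnf40ΔSC nerves. In all 3 genes every Rnf40ΔSC library lay below every control library. The log2 fold changes were -1.41 ± 0.11 for Plxnb3 (edgeR, BH-adjusted p = 1.37e-12), -1.15 ± 0.10 for Plxnb1 (edgeR, BH-adjusted p = 1.65e-11) and -0.95 ± 0.16 for Plxna3 (edgeR, BH-adjusted p = 1.94e-05).

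Plxnd1, the receptor of Sema3e that is best known from blood vessels, rose. It was counted at 491, 466 and 524 in controls and at 590, 583 and 828 in Rnf40ΔSC nerves. The genotypes did not overlap, although Rnf40ΔSC replicate 3 stood above the other libraries of its genotype. The log2 fold change was 0.44 ± 0.11 (edgeR, BH-adjusted p = 0.00413), or 0.26 without Rnf40ΔSC replicate 3 and 0.71 with total counts. Plxna1, a receptor subunit for Sema3a and Sema6d, was at 0.26 with overlapping libraries and lay at the threshold (edgeR, BH-adjusted p = 0.05). Plxna1 did not pass with DESeq2 (BH-adjusted p = 0.119), nor without control replicate 2 or 3 or Rnf40ΔSC replicate 1 or 3, at adjusted p between 0.104 and 0.279 (edgeR, BH), and with total counts it was at 0.53.

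The remaining plexins did not pass. Plxna4, a partner of Nrp1 in Sema3a signalling, was at -0.88 ± 0.38 (edgeR, BH-adjusted p = 0.0716), and it passed without control replicate 2 (-1.18, edgeR BH-adjusted p = 0.0266) and without Rnf40ΔSC replicate 3 (-1.35, edgeR BH-adjusted p = 0.013). Without control replicate 1 Plxna4 was at -0.66 (edgeR, BH-adjusted p = 0.273). Plxna2 was at -0.05, Plxnb2 at -0.01 and Plxnc1 at 0.28. Of 9 plexins, 3 were lower and 2 higher (33.3% and 22.2%) with either scaling, beside 16.2% and 15.4% of all genes tested with TMM and 7.74% and 33.1% with total counts.

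Because all plexins are compared within 1 library, their shares of the family's summed level do not depend on scaling. Plxnb1 and Plxnb3 together made up 37.0%, 40.7% and 40.1% of the summed CPM per kilobase of exons in control libraries 1 to 3, and 19.4%, 19.5% and 18.2% in Rnf40ΔSC libraries 1 to 3. Plxna1 and Plxnd1 made up 39.6%, 36.5% and 38.9% in controls and 57.7%, 55.6% and 60.4% in Rnf40ΔSC nerves. These pairs were put together after their values were seen. CPM is the count scaled to the effective library size. The pool thus held more Plxnd1 and less Plxnb1 and Plxnb3 relative to the other plexins in each Rnf40ΔSC library than in any control library.

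Neuropilins, the co-receptors of class 3 semaphorins, were among the more abundant receptors and did not pass. Nrp1, which also binds VEGF, had 349, 306 and 350 normalized counts in controls and 337, 369 and 290 in Rnf40ΔSC nerves. The log2 fold change of Nrp1 was -0.02 ± 0.10 (edgeR, BH-adjusted p = 0.908), with overlapping libraries. Nrp2 had 526, 551 and 529 in controls and 471, 481 and 447 in Rnf40ΔSC nerves, which did not overlap, but the log2 fold change of -0.20 ± 0.09 did not pass (edgeR, BH-adjusted p = 0.0922). With total counts both were above 0, at 0.25 for Nrp1 and 0.07 for Nrp2.

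**Figure D3:**
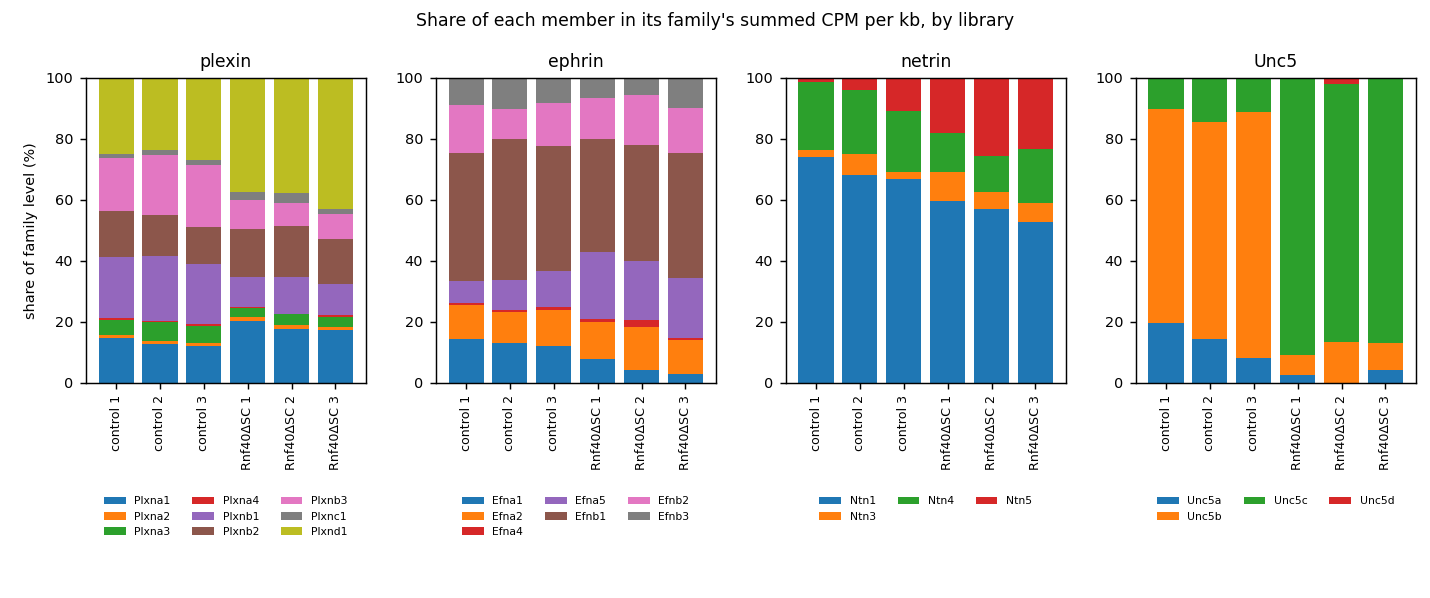
Share (%) of each member in its family's summed CPM per kilobase of exons, shown for plexins, ephrins, netrins and Unc5 receptors, with 1 stacked bar for each library. In plexins the part of Plxnd1 had a mean of 25.2% in controls and 39.6% in Rnf40ΔSC nerves, and in Unc5 receptors the part of Unc5c ran from 10.1% to 14.7% and from 84.6% to 90.8%.

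Among the Eph receptor tyrosine kinases, Epha7 (chr4:28740281-28894649), a receptor of class A ephrins, had the highest fold change. It was counted at 30.2, 28.3 and 34.4 in control libraries 1 to 3 and at 116, 97.6 and 92.6 in Rnf40ΔSC libraries 1 to 3. All 3 Rnf40ΔSC libraries were far above the controls, and the log2 fold change was 1.71 ± 0.19 (edgeR, BH-adjusted p = 3.47e-09), or 3.26-fold. Ephb1, a receptor of class B ephrins, had 15.9, 9.81 and 20.7 in controls and 36.4, 32.5 and 34.3 in Rnf40ΔSC nerves. Here too the genotypes were separate, with a log2 fold change of 1.13 ± 0.29 (edgeR, BH-adjusted p = 0.00242). Epha5, another receptor of class A ephrins, was at 0.71 (edgeR, BH-adjusted p = 0.0111) and did not pass without control replicate 3 (0.56, edgeR BH-adjusted p = 0.105) or with DESeq2 (BH-adjusted p = 0.062).

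Other Eph receptors fell. Ephb6, whose kinase domain is inactive, was counted at 96.9, 115 and 102 in controls and at 50.5, 63.9 and 61.4 in Rnf40ΔSC nerves. The libraries did not overlap, and the log2 fold change was -0.85 ± 0.16 (edgeR, BH-adjusted p = 8.9e-05). Ephb4, the venous receptor of Efnb2, was at -0.58 ± 0.14 (edgeR, BH-adjusted p = 0.0014), Epha2, a receptor of Efna1, at -0.66 ± 0.18 (edgeR, BH-adjusted p = 0.00522), and Epha4, which binds ephrins of both classes, at -0.77 ± 0.27 (edgeR, BH-adjusted p = 0.0252). With total counts these 3 were at -0.31, -0.39 and -0.51 and did not pass, with adjusted p (edgeR, BH) of 0.0851, 0.0874 and 0.132. Epha4 also did not pass without control replicate 1, control replicate 2 or Rnf40ΔSC replicate 3, at adjusted p (edgeR, BH) of 0.0819, 0.0754 and 0.104, or with DESeq2 (BH-adjusted p = 0.106).

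The 3 further Eph receptors were tested and did not pass. Ephb2 was at 0.07, Ephb3 at 0.41 (edgeR, BH-adjusted p = 0.0885) and Epha6 at 0.82 (edgeR, BH-adjusted p = 0.0875). Ephb3 and Epha6 passed with total counts (0.68 and 1.08) and without Rnf40ΔSC replicate 3 (0.51 and 1.07), Ephb3 also without control replicate 3 (0.61) and Epha6 without control replicate 2 (1.30). Other single libraries moved them the other way. Epha6 was at 0.43 without Rnf40ΔSC replicate 1 and at 0.49 without control replicate 3 (edgeR, BH-adjusted p of 0.506 and 0.42). Ephb3 was at 0.28 without control replicate 2 (edgeR, BH-adjusted p = 0.345). Epha1, Epha3, Epha8 and Epha10 had between 0 and 6 counts in any library and were not tested, and Epha8 had 0 in all 6. Of 10 tested Eph receptors, 4 were lower and 3 higher (beside 16.2% and 15.4% of all genes tested), compared to 1 lower and 5 higher with total counts (beside 7.74% and 33.1%), and the count of higher members was also 5 without Rnf40ΔSC replicate 3.

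Unc5c (chr3:141128528-141497888), a netrin receptor that mediates repulsion, had the highest fold change of all tested members. Raw counts were 3, 6 and 4 in control libraries 1 to 3 and 202, 118 and 186 in Rnf40ΔSC libraries 1 to 3, or 4.76, 6.54 and 3.44 against 167, 142 and 148 normalized counts. The gene was close to the detection limit in each control library and well counted in each Rnf40ΔSC library. The log2 fold change was 4.96 ± 0.25 (edgeR, BH-adjusted p = 1.8e-18), or 31.1-fold, and stayed between 4.69 and 5.24 with single libraries left out. A filter that demands at least 10 counts in every library removes Unc5c, Sema3a, Ntn5, Ephb1, Efna1 and Sema3e before testing.

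The other Unc5 receptors stayed low. Unc5b, the vascular family member, had 15.9, 15.3 and 12.1 normalized counts in controls and 5.80, 10.8 and 7.18 in Rnf40ΔSC nerves. Its libraries did not overlap, but its log2 fold change of -0.87 ± 0.41 did not pass (edgeR, BH-adjusted p = 0.101). Unc5a had between 0 and 3 counts and Unc5d between 0 and 2 counts per library, and neither was tested. In share of the family's summed CPM per kilobase, Unc5b made up 70.2%, 71.1% and 80.8% in control libraries and 6.55%, 13.4% and 8.77% in Rnf40ΔSC libraries. The main Unc5 receptor transcript of the nerve was therefore Unc5b in each control library and Unc5c in each Rnf40ΔSC library.

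Robo receptors were represented mostly by Robo4, which is known from endothelial cells and made up 88.8% ± 2.24 (SD, n = 3) of the family's summed CPM per kilobase in controls. Robo4 had a log2 fold change of -0.56 ± 0.20 (edgeR, BH-adjusted p = 0.0315). It did not pass with total counts (-0.29, edgeR BH-adjusted p = 0.264), nor without control replicate 1, control replicate 3 or Rnf40ΔSC replicate 1, at adjusted p (edgeR, BH) of 0.0948, 0.136 and 0.17, or with DESeq2 (BH-adjusted p = 0.128). Of 8 endothelial markers 5 were lower with TMM, beside 16.2% of all genes tested. Their median log2 fold change was -0.54, and total counts moved the median gene by 0.27 towards Rnf40ΔSC. Other members known from blood vessels went both ways. Plxnd1 was higher at 0.44, Efnb2 was at 0.03, Ephb4 was lower at -0.58 and Unc5b was at -0.87 without passing. The part of endothelial cells in these results was not tested. Robo1, a Slit receptor of axons, was at -0.83 (edgeR, BH-adjusted p = 0.16). Robo2 had between 1 and 11 counts and Robo3 between 0 and 3 counts per library, and neither was tested.

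The levels of the members spanned a wide range. Per kilobase of exons, in CPM, Sema3b had the highest control level at 168 ± 11.4 (SD, n = 3), followed by Sema4g at 75.6 ± 2.12, Sema5a at 67.1 ± 5.18, Sema6d at 59.1 ± 3.60, Sema4c at 39.2 ± 0.538 and Plxnd1 at 35.6 ± 2.09. In this order Sema5a and Sema6d were separated by little more than their spread, as were Sema4c and Plxnd1. In Rnf40ΔSC nerves the level of Sema3b was 67.1 ± 9.71 and that of Sema5a 63.3 ± 4.10, so that these no longer differed beyond their spread. Sema4g went from rank 2 to rank 5 and Sema4c from rank 5 to rank 11 among the 68 members, and Unc5c from rank 61 to rank 28.

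Control levels of members that fell and that rose are given as a description, since a gene that falls must be well counted in controls to pass the filter on low counts and the test, whereas a gene that rises can pass through the Rnf40ΔSC libraries alone. The median control level of the 18 lower members was 19.0 CPM per kilobase, close to the 18.2 of all lower genes with a known length. The median control level of the 11 higher members was 2.01 CPM per kilobase, beside 9.76 for all higher genes with a known length, and ranged from 0.209 for Unc5c to 35.6 for Plxnd1. In Rnf40ΔSC nerves these medians were 10.6 for the lower and 6.50 for the higher members. Summed over the 20 semaphorins, the level was 500, 530 and 518 CPM per kilobase in control libraries 1 to 3 and 351, 325 and 347 in Rnf40ΔSC libraries 1 to 3. This sum is led by a few members. The mean of Sema3b went from 168 to 67.1, that of Sema4g from 75.6 to 34.4 and that of Sema4c from 39.2 to 20.8. Some other means rose, such as that of Sema6c from 22.2 to 27.6.

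**Figure D4:**
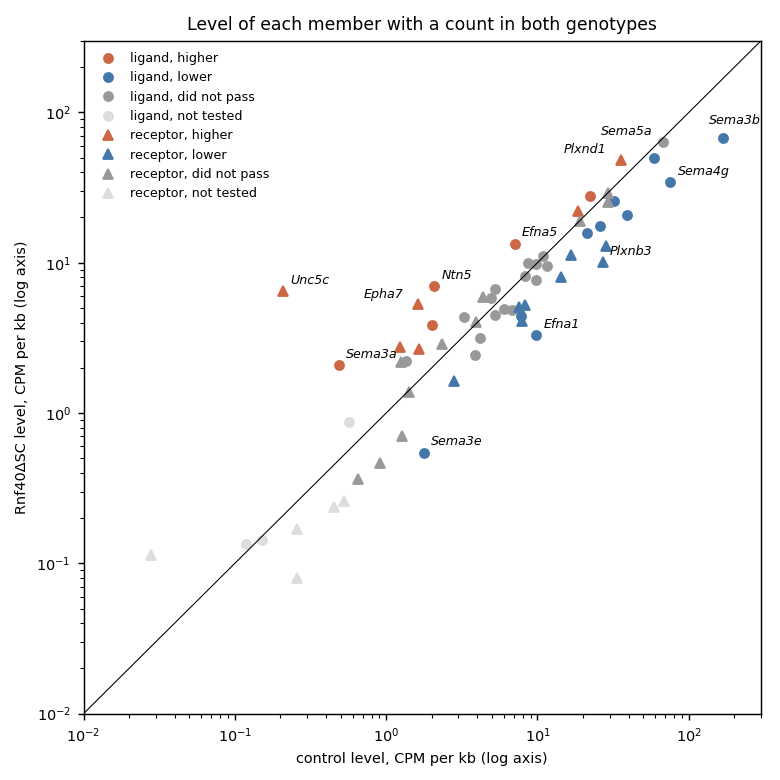
Mean level in CPM per kilobase of exons in control (x axis) and Rnf40ΔSC nerves (y axis), both on log axes, for members with a count in both genotypes; circles are ligands, triangles are receptors, colours give the call, and the line marks equal levels. Unc5c lies farthest above the line, at 0.209 in control and 6.50 in Rnf40ΔSC nerves, and Sema3b has the highest mean in both genotypes, although in Rnf40ΔSC nerves it differs from Sema5a by less than the spread of the libraries.

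Ligands and receptors known to bind each other can be set side by side. Sema3e was lower and its receptor Plxnd1 higher. Sema3a was higher, whereas its co-receptor Nrp1 was at -0.02. Sema5a was at -0.09 and its receptor Plxnb3 lower. Sema4c and Sema4g were lower, and their receptor Plxnb2 was at -0.01. Class A ephrins bind class A receptors broadly, and here Efna1 was lower and Efna5 higher, with Epha2 and Epha4 lower and Epha5 and Epha7 higher, so pairs in the same and in opposite directions both occur. Ntn1 was lower and Unc5c higher, while the netrin receptor Dcc, with 2, 0 and 9 raw counts in controls and 5, 4 and 3 in Rnf40ΔSC nerves, was not tested and Neo1, a related receptor, was at 0.09 (edgeR, BH-adjusted p = 0.612). Whether ligand and receptor come from the same cells was not tested.

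Genes that act with these receptors were taken from a list of 58, of which 50 were tested. In Rnf40ΔSC nerves 14 were lower (28.0%) and 12 higher (24.0%), beside 16.2% and 15.4% of all genes tested, compared to 4 lower and 21 higher of the 50 with total counts, beside 7.74% and 33.1% of all genes tested, and the median log2 fold change of the 50 was -0.10. The count of lower genes depended on single libraries, with 6 without Rnf40ΔSC replicate 1, 8 without Rnf40ΔSC replicate 2 and 8 without control replicate 3. In the same fits 12.8%, 13.8% and 12.4% of all genes tested were lower. The count of higher genes was 8 without control replicate 3, beside 11.1% of all genes tested. With DESeq2 7 effector genes were lower, beside 11.3% of all genes tested. Of the 9 tested Slit-Robo partners 4 were lower and 2 higher, of the 17 tested semaphorin effectors 4 were lower and 2 higher, of the 8 tested Eph-ephrin effectors 3 were lower and 0 higher, and of the 4 tested netrin and RGM genes outside the symbol rule 1 was lower and 1 higher. These groups hold only part of the 12 higher genes. The others belong to 1 group that is not reported here, so the 24.0% does not describe each group.

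The 5 effector genes that rose with the lowest adjusted p were Fyn, Srgap1, Pak1, Dpysl5 and Sdc3. Fyn, a Src-family kinase downstream of semaphorin and ephrin signals, had a log2 fold change of 1.11 ± 0.09 (edgeR, BH-adjusted p = 5.17e-12). Srgap1, which binds Robo receptors, was at 1.05 ± 0.10 (edgeR, BH-adjusted p = 2.62e-11). Pak1, a kinase activated by Rac1 and Cdc42, was at 1.44 ± 0.16 (edgeR, BH-adjusted p = 2.65e-09), and Dpysl5, a collapsin response mediator protein, at 1.46 ± 0.21 (edgeR, BH-adjusted p = 6.11e-07). Sdc3, a heparan sulfate proteoglycan, was at 0.50 ± 0.09 (edgeR, BH-adjusted p = 2.64e-05). In these 5 genes every Rnf40ΔSC library was above every control library.

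The 5 effector genes that fell with the lowest adjusted p were Chn2, Gpc1, Flrt2, Ntng1 and Met. Chn2, a chimaerin that inactivates Rac, was at -1.27 ± 0.20 (edgeR, BH-adjusted p = 3.07e-06), Gpc1, a glypican that binds Slits, at -0.80 ± 0.15 (edgeR, BH-adjusted p = 3.74e-05), and Flrt2, a membrane ligand of Unc5 receptors, at -0.88 ± 0.16 (edgeR, BH-adjusted p = 4.58e-05). Ntng1, a membrane-anchored relative of netrins, was at -0.78 ± 0.18 (edgeR, BH-adjusted p = 0.000677), and Met, a receptor kinase that associates with class B plexins, at -0.76 ± 0.23 (edgeR, BH-adjusted p = 0.0104). Met did not pass with total counts (-0.49, edgeR BH-adjusted p = 0.0896), without control replicate 2 (-0.62, edgeR BH-adjusted p = 0.0917) or without Rnf40ΔSC replicate 1 (-0.64, edgeR BH-adjusted p = 0.0673), or with DESeq2 (BH-adjusted p = 0.0592). In these 5 genes every Rnf40ΔSC library was below every control library.

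Beside the members, most of the marker lists given here were lower with TMM, where 16.2% of all genes tested were lower. Median log2 fold changes were -0.32 for fibroblast, -0.54 for endothelial, -0.55 for pericyte or smooth muscle and -0.47 for macrophage markers. Scaling by total counts moved the median gene by 0.27 towards Rnf40ΔSC, which is a large part of these medians. Of 6 fibroblast markers 5 were lower, with sums led by Col1a2 of 55757, 54308 and 59269 in controls and 41688, 39160 and 40495 in Rnf40ΔSC nerves. Of 8 endothelial markers 5 were lower, with sums led by Cdh5 of 1466, 1291 and 1485 in controls and 949, 950 and 1115 in Rnf40ΔSC nerves. Of 7 markers of pericytes or smooth muscle cells 5 were lower, with sums led by Pdgfrb of 2105, 1539 and 1742 in controls and 1130, 1108 and 1359 in Rnf40ΔSC nerves. These sums separated the genotypes in the same direction as the lower members, and their part in the members' results was not tested.

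Of 9 macrophage markers 7 were lower, with sums led by Csf1r of 946, 891 and 962 in controls and 649, 640 and 659 in Rnf40ΔSC nerves. By staining, the study reports the other direction at this age, with a larger share of Iba1-positive macrophages in Rnf40ΔSC nerves. From its RNA-Seq at this age, the study reports no sign in gene set analyses of a substantial rise in inflammation or immune genes. The source of the difference between staining and counts was not tested. For mast cells 2 of 3 markers were lower (sums led by Cpa3 of 77.8, 95.9 and 116 in controls and 59.6, 47.0 and 44.7 in Rnf40ΔSC nerves), for perineurial cells 2 of 2 tested (sums led by Cldn1 of 799, 947 and 893, and 738, 622 and 646), and for adipocytes 3 of 5 (sums led by Fabp4 of 2244, 1646 and 2853, and 1770, 1617 and 1290). Skeletal muscle separated the libraries by pool and not by genotype. The sums of 10 muscle markers, led by Myh4, were 7537, 5486 and 4146 in controls and 159, 378 and 5181 in Rnf40ΔSC libraries 1 to 3, and 0 of 9 tested markers passed. Of 9 neuron markers 3 were tested and Snap25 alone was higher, Isl1 had 0 counts in all 6 libraries, and the sums, led by Stmn2, were 39.7, 58.8 and 51.6 in controls and 77.0, 60.3 and 51.1 in Rnf40ΔSC nerves.

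**Figure D5:**
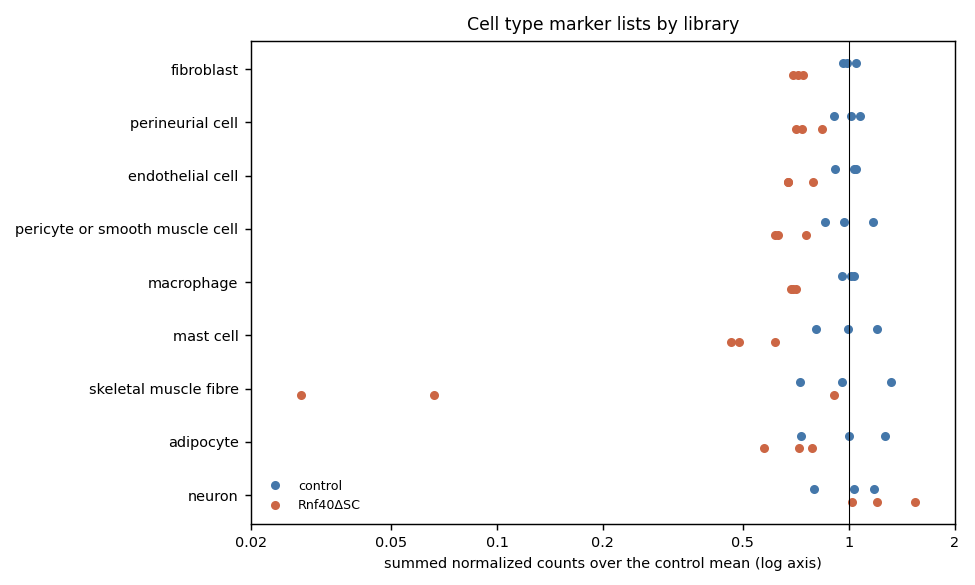
Summed normalized counts of 9 cell type marker lists in each library, divided by the control mean of that list (x axis, log scale); points are libraries. The fibroblast sums of the Rnf40ΔSC libraries had a mean of 0.717 of the control mean, while Rnf40ΔSC replicate 3 lies near the controls for skeletal muscle and the other Rnf40ΔSC libraries lie far below; scaling by total counts raises all Rnf40ΔSC points.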

How the data were processed

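RNA of sciatic nerves was sequenced by the authors, who deposited raw counts per gene for each library, made by aligning reads to mm9 with TopHat, keeping unique reads and counting with HTSeq. The labels also list mm10 and Bowtie2 2.1.0, and annotation and strand setting were not stated. Counts of 24015 symbols were tested here in R 4.3.3 with edgeR 4.0.16 (filterByExpr, TMM, robust quasi-likelihood test, genotype as only term), with Benjamini-Hochberg adjustment over the 11371 genes tested and a pass at an adjusted p of at most 0.05. The standard error is the log2 fold change divided by the square root of F. Levels per kilobase use union exons of GENCODE vM1. Alternatives were DESeq2 1.42.0 with and without its prior, RLE and total-count scaling, other filters, a replicate term, each library left out and the limits of the study. Python 3.11.15 read the promoters.

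Members and lists were chosen with earlier results of these data known. Members that passed are named, with values in each library where the log2 fold change was beyond 0.8 without overlap and for the 6 highest control levels. Of the effector genes, the 5 lowest adjusted p in each direction are named, and of each marker list the most abundant gene and genes at 0. Of the lists examined, the 3 marker lists of Schwann cells and 1 group of effector genes are not reported here, so the members' results are given without them.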

Additional observations from a re-analysis of the deposited data

How the results depend on the processing

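With total-count scaling 10 members were lower and 18 higher, with the limits of the study 8 and 6, and with at least 10 counts in every library 7 were higher, since that filter removes members that are low in controls. With a library left out, 14 to 18 members were lower and 9 to 12 higher. Of the effector genes 7 were lower with DESeq2 without and 7 with its prior, 4 were lower and 21 higher with total counts, 3 were lower and 4 higher with the limits of the study, and with a library left out 6 to 11 were lower and 8 to 11 higher. Of all genes tested, 11.3% were lower with DESeq2, with or without its prior. With total counts 7.74% were lower and 33.1% higher, and with the limits of the study 5.05% and 3.73%. With a library left out, 12.4% to 17.3% of all genes were lower and 11.1% to 16.7% higher. With at least 10 counts in every library 16.7% were higher, and with a replicate block 16.2% were lower and 15.2% higher. Rnf40 was at -0.27 with total counts and between -0.58 and -0.48 with a library left out. Total counts turned the sign of Slit3 (0.07), Efna2 (0.25), Nrp1 (0.25), Nrp2 (0.07), Plxna2 (0.22), Plxnb2 (0.26), Sema3g (0.03), Sema5a (0.18), Sema6d (0.02) and Sema7a (0.01), by the shift common to all genes, and at least 10 counts in every library put Plxnb2 at 0.00. With a library left out, the sign changed within the ranges of Ephb2 (-0.04 to 0.20), Efna2 (-0.09 to 0.06), Efnb2 (-0.16 to 0.19), Nrp1 (-0.09 to 0.08), Plxna2 (-0.20 to 0.08), Plxnb2 (-0.09 to 0.06) and Sema6a (-0.02 to 0.13), none of which passed. The cause of these changes was not tested. Libraries of the same replicate number did not deviate together (correlations of -0.09, -0.02 and -0.06), and with a replicate block 19 members were lower and 10 higher, as Plxna4 passed (-0.93, edgeR BH-adjusted p = 0.0496) and Plxna1 did not (0.25, edgeR BH-adjusted p = 0.0621), with no other member's call changed, while 13 effector genes were lower and 11 higher. The runs for the 10 named effector genes were added after the data were seen.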
